A study of Mus musculus with 14 samples.

Results

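The matrix metalloproteases (MMPs), the ADAM and ADAMTS metalloproteases and the tissue inhibitors of metalloproteases (TIMPs) were examined in tumours of mice deficient in HIF-2α and of control mice. Members were the genes whose platform symbol begins with Mmp, Timp or Adam followed by a digit, or with Adamts. Each gene was read from its probeset with the highest mean over the arrays. The rule gave 56 genes, with 85 probesets between them, of 12393 genes named on the array. It uses gene names and no measured difference. The deficient group held 7 arrays, whose labels say both knockdown and deficient for Hif2alpha, the protein encoded by Epas1. The control group held 7 arrays, labelled as control with no further allele given. All mice shared a mixed 129 SvJ/C57Bl6 background, and the series text speaks of 7 mice in each group. No source used here gives the organ, the age of the mice, the part of Epas1 that was lost or the cells that lost it. Work on tumours of the lung is what the series is known for. The alveolar type II markers, genes of the surfactant-making cells of the lung, had mean levels of 13.02 to 13.41 in deficient arrays and 13.14 to 13.36 in control arrays.

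MMPs, ADAMs and ADAMTS proteins are zinc-dependent proteases. Secreted MMPs cut collagens, elastin and other matrix proteins, membrane-type MMPs do so at the cell surface, and TIMPs bind and block the active enzymes. Catalytic ADAMs sit in the membrane and release the outer parts of receptors, growth factors and cytokines, whereas several other ADAMs act in adhesion or in sperm and egg fusion. ADAMTS enzymes are secreted and cut proteoglycans, procollagens and other matrix proteins. HIF-2α is a transcription factor of the response to low oxygen. In cartilage cells it is known to raise MMP3, MMP9, MMP12, MMP13 and ADAMTS4, and in kidney cancer cells MMP14, which is why these members were followed separately.

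Values are log2 probeset levels made by GCRMA, a method that subtracts a background predicted from probe sequence and normalises between arrays. They ran from 2.12 to 15.38, and values pile up just above 2 where only background is left. A level of 4 was taken as the limit of detection, and a probeset was tested if it exceeded 4 in 7 or more arrays. Array medians were 5.13 to 5.21 in deficient arrays and 5.19 to 5.30 in control arrays. RNA degradation, read as the mean log2 difference between 3' and 5' control probesets, was 2.80 ± 0.23 in deficient arrays and 2.87 ± 0.34 in control arrays (SD, n = 7 each, two-sided exact permutation p = 0.692). The single Epas1 probeset read 4.88, 5.75 and 6.38 in deficient arrays (lowest, median, highest) and 4.65, 6.13 and 6.50 in control arrays, so the groups overlapped (-0.19, SE 0.30, limma adjusted p = 0.807). Since the lost part of the gene is not known, this probeset checks nothing about the labels. The descriptions of the arrays begin with numbers that several arrays share, and their meaning is not stated. Deficient 1 and 5 share a number, as do deficient 3 and 6, deficient 4 and 7, and control 1 and 4. Deficient 2 stands alone, and the other 5 control arrays share the last of the 6 numbers. No leading number occurs in both groups. The array numbers of the deficient arrays also all come before those of the control arrays. A difference tied to either kind of number therefore cannot be told apart from a difference between the groups. Deviations from the group mean correlated at 0.11 on average between arrays of the same number (14 pairs) and at -0.28 between other arrays of a group (28 pairs), across probesets, which are not independent. Subtracting the mean of the same arrays pulls such correlations below 0, so neither value is to be read against 0. Most of the same-number pairs come from the 5 control arrays that share a number. If a number marks a shared origin, there are fewer independent samples than arrays. The p-values measure only the spread between these arrays, which may in part be technical.

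Of the 56 members 22 were tested and 34 were not, since they never or seldom left the background. Between deficient and control tumours 0 of the 22 passed an adjusted p of 0.05 (limma, Benjamini-Hochberg adjustment over 12701 probesets), where 0.0394% of all tested probesets did. At an unadjusted p under 0.05 stood 9 members, or 40.9% of those tested, against 14.7% of all tested probesets. Of these 6 were lower in deficient tumours (27.3% of members, against 6.57% of all probesets) and 3 were higher (13.6%, against 8.09%). In 0 of the 22 members were the arrays of the groups fully separated, against 0.496% of all tested probesets. The median difference, deficient minus control, was -0.01 for the tested members and 0.02 for all tested probesets. Some members passed the filter only through the group in which they are high, so these shares are a description of the tested members and no test of the family. The lower members were Adam8, Mmp23, Adam15, Mmp2, Timp4 and Adamts15, and the higher ones Adam9, Adam10 and Adamts4.

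**Figure D1:**
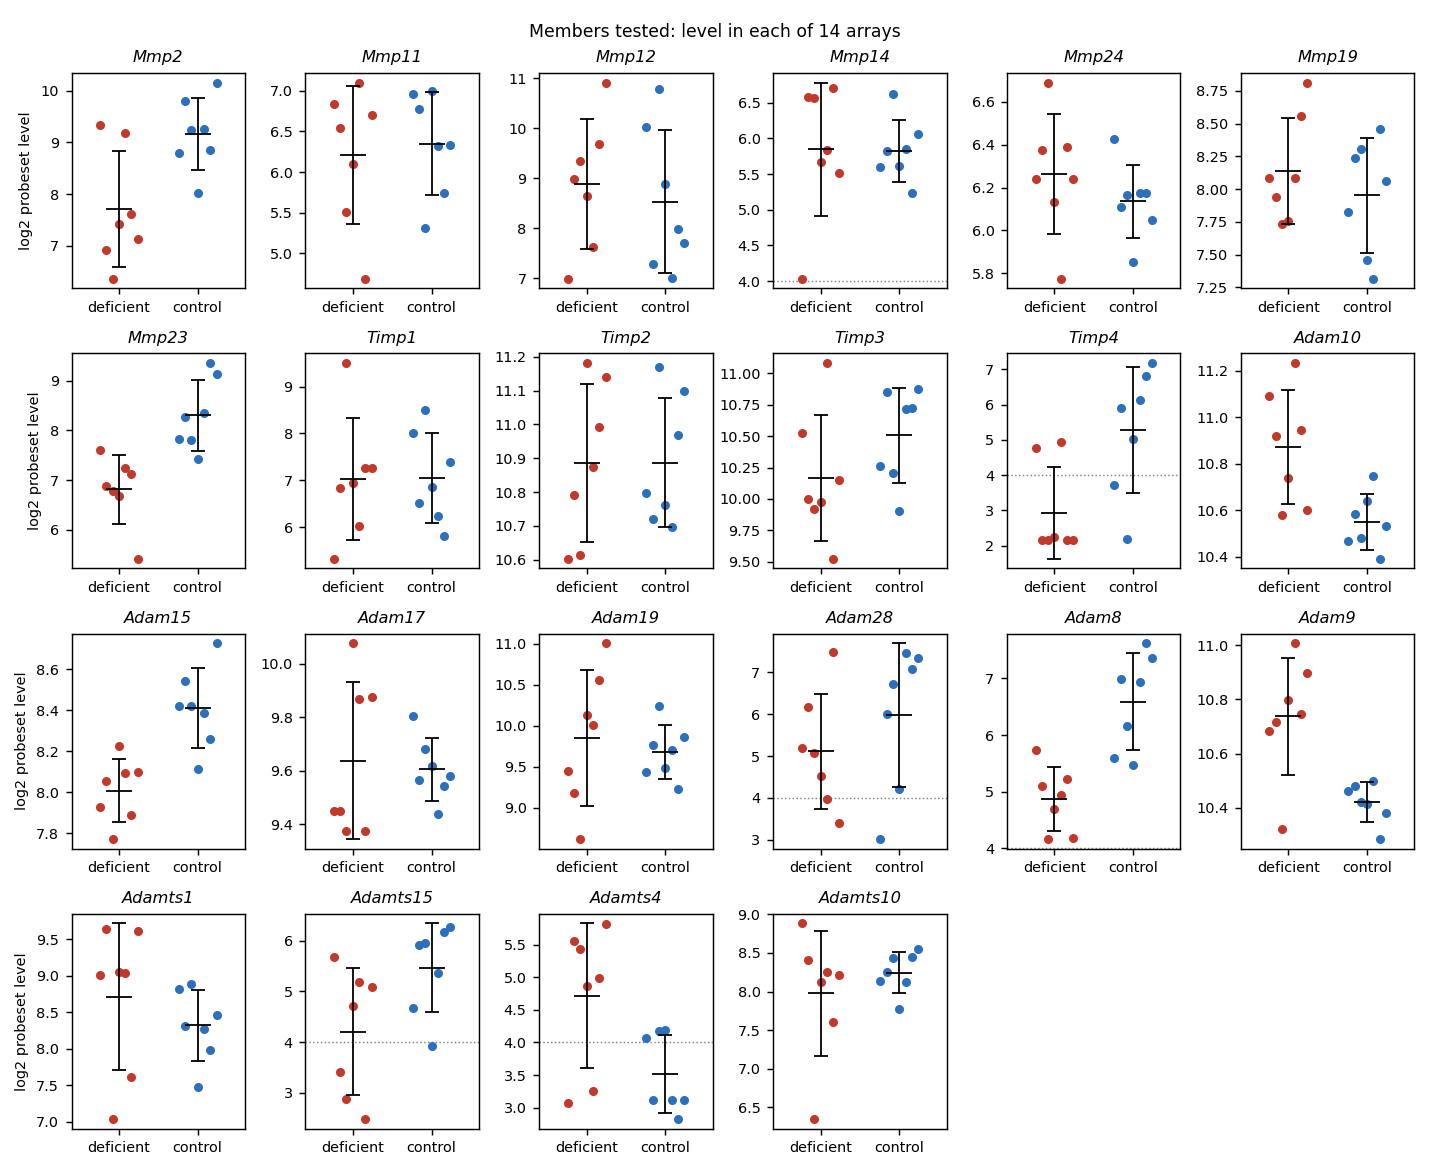
Log2 probeset level (vertical axes, each with its own range) of the 22 tested members in 7 deficient arrays (red, left) and 7 control arrays (blue, right), with points in order of array number, bars for the mean ± SD and a dotted line at the detection limit of 4. For Adam8 and Mmp23, 6 of 7 deficient arrays lie below every control array, while the groups overlap widely for Timp1, Timp2, Mmp12 and Mmp14.

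Gelatinases cut denatured collagen and the type IV collagen of basement membranes. Mmp2, the gelatinase made largely by fibroblasts and other mesenchymal cells, read 6.37, 7.42 and 9.33 in deficient arrays (lowest, median, highest) and 8.03, 9.25 and 10.15 in control arrays. In 5 of 7 deficient arrays Mmp2 lay below the lowest control array, and deficient 1 and 5, at 9.33 and 9.17, lay among the controls. The difference was -1.45 (SE 0.46, 95% interval -2.43 to -0.47, 2.74-fold lower), and it did not pass over all probesets (limma adjusted p = 0.181). The second Mmp2 probeset differed by -1.31 (SE 0.50). With deficient 1 and 5 left out together, the Mmp2 difference was -2.07 (adjusted p = 0.0196). That fit was chosen after the data were seen and removes the deficient arrays nearest to the controls, so its smaller p follows from the choice. Mmp9, the gelatinase stored in neutrophil granules, was not tested. All 7 deficient arrays stayed under 4 for Mmp9, with a highest value of 2.89, while control 3 read 5.00 and control 6 read 4.07. The neutrophil markers had their highest mean levels of all arrays, 7.42 and 6.25, in those same control arrays, and the part of these cells in the Mmp9 values was not tested.

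Most genes of the collagenase, stromelysin and matrilysin kind were at background. The metalloelastase Mmp12, an enzyme of macrophages that cuts elastin, was the member of this kind with a high level in every array. Mmp12 read 6.99, 8.98 and 10.91 in deficient arrays and 7.01, 7.99 and 10.78 in control arrays. The groups covered the same range, and the difference of 0.35 (SE 0.67, 95% interval -1.07 to 1.78, limma adjusted p = 0.844) was smaller than the spread between arrays. Mmp11, stromelysin 3, known from the stroma of carcinomas, read 4.69, 6.55 and 7.10 in deficient arrays and 5.31, 6.33 and 7.00 in control arrays (-0.14, SE 0.37). Again neither group stood apart. Mmp3, stromelysin 1, exceeded 4 in 3 deficient arrays, with a highest value of 5.58 in deficient 7, and in 2 control arrays, with a highest value of 4.74 in control 7. Mmp10, stromelysin 2, exceeded 4 in deficient 3, at 6.28, and in control 3, at 5.77, and its median was 2.15 in both groups. The collagenase Mmp13 exceeded 4 only in deficient 3 of the 14 arrays, at 5.58, and deficient 2 followed at 3.73, whereas the 7 control arrays lay between 2.17 and 2.24. Deficient 3 thus held the highest value of both Mmp10 and Mmp13. The collagenases Mmp1a, Mmp1b and Mmp8 and the matrilysin Mmp7 stayed at or under 2.39 in all 14 arrays.

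**Figure D2:**
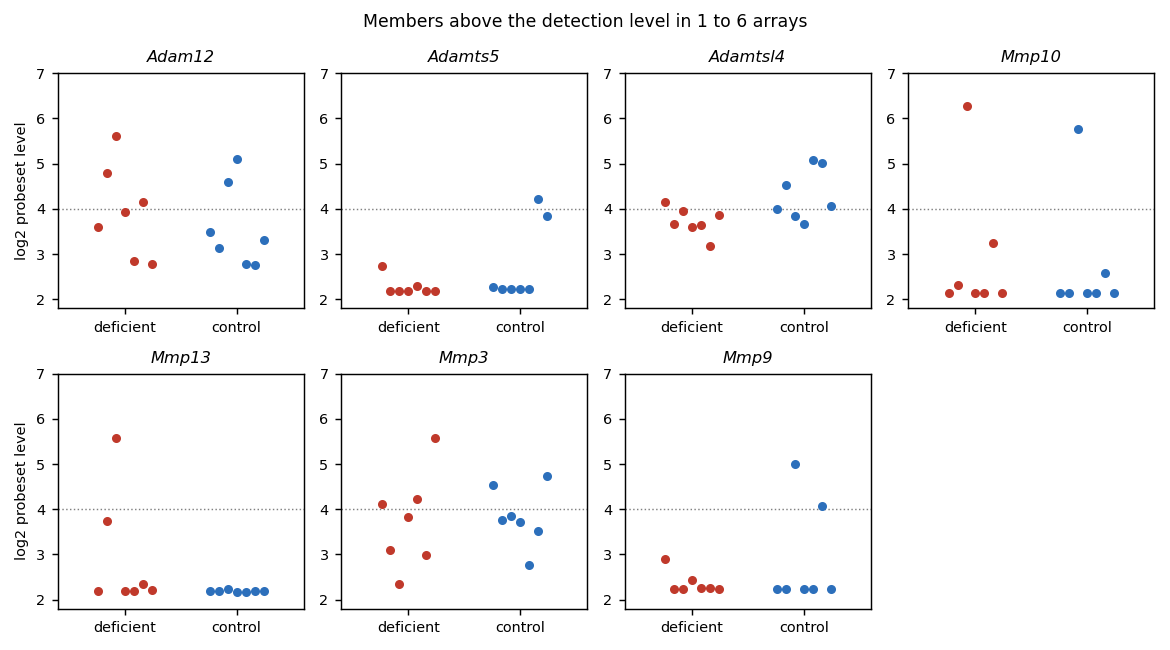
Log2 probeset level of the 7 members that exceeded the detection limit of 4 (dotted line) in 1 to 6 arrays and were not tested, in 7 deficient arrays (red, left) and 7 control arrays (blue, right), with points in order of array number. Mmp13 exceeds the limit in 1 deficient array, Adamts5 in 1 control array, Mmp10 in 1 array of each group and Mmp9 in 2 control arrays. Adam12, Adamtsl4 and Mmp3 scatter around the limit.

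Of these genes 9, namely Mmp7, Mmp20, Mmp8, Mmp10, Mmp1a, Mmp3, Mmp1b, Mmp12 and Mmp13, form a run on mouse chromosome 9. Only Mmp12 of the 9 was tested, 3 more exceeded 4 in some arrays, and 5 never did. AP-1, the factor of growth and stress signals, is known to act on several of these promoters, and its site TGAGTCA was searched on both strands from 250 bases before to 50 bases after each gene start. It was found in 7 of the 9 genes, and in 9 of 37 promoter windows of the members (24.3%), against 5.20% of 32851 windows of all genes. RefSeq promoter windows, build GRCm38.p6, were matched for 32 of the 56 members. The stretches of the 4 genes of the run that gave signal in any array are shown so that the site can be seen beside the values above, 60 bases each, 5′ to 3′ on the plus strand, with the site (in Mmp13 its reverse complement) in capitals. They lie at chr9:7347304-7347363 for Mmp12, chr9:7445750-7445809 for Mmp3, chr9:7502253-7502312 for Mmp10 and chr9:7272453-7272512 for Mmp13. Counted from the gene start, the site begins at -44, -46, -63 and -35 in that order.
Mmp12: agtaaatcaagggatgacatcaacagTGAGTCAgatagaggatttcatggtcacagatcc
Mmp3: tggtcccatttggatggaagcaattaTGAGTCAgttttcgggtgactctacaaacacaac
Mmp10: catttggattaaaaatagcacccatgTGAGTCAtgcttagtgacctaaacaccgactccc
Mmp13: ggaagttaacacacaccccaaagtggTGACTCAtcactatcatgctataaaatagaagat
All 4 sites sit a short way before the gene start, yet Mmp12 read above 6.9 in every array and Mmp13 under 4 in 13 of 14. The match is a description of the letters and shows no binding.

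Membrane-type MMPs are anchored at the cell surface. Mmp14, the activator of the Mmp2 proenzyme, read 4.04, 5.84 and 6.70 in deficient arrays and 5.23, 5.82 and 6.62 in control arrays. The groups overlapped, and the difference was 0.016 (SE 0.36, 95% interval -0.75 to 0.78, limma adjusted p = 0.989). Its sign changed with the arrays used, for example to -0.30 without deficient 3 and 6. Mmp24, known from nerve cells, read 5.78, 6.24 and 6.69 in deficient arrays and 5.85, 6.17 and 6.42 in control arrays (0.13, SE 0.13, adjusted p = 0.687). Mmp16 and Mmp17 stayed under 2.2 in all 14 arrays, as did Mmp20 of the remaining MMPs.

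The remaining MMPs held the clearest MMP difference. Mmp23, an unusual MMP anchored in the membrane by its N-terminal part, read 5.42, 6.88 and 7.61 in deficient arrays and 7.42, 8.28 and 9.36 in control arrays. Of the 7 deficient arrays 6 lay below every control array, and deficient 1 at 7.61 lay above control 4 alone. The difference was -1.49 (SE 0.35, 95% interval -2.24 to -0.75, 2.81-fold lower), with a limma adjusted p of 0.126. Its dimmer probeset was not tested and read 2.84 on average in deficient and 3.59 in control arrays. Mmp19, a widely made MMP that cuts basement membrane proteins, read 7.74, 8.08 and 8.81 in deficient arrays and 7.32, 8.06 and 8.46 in control arrays (0.19, SE 0.21, adjusted p = 0.721).

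**Figure D3:**
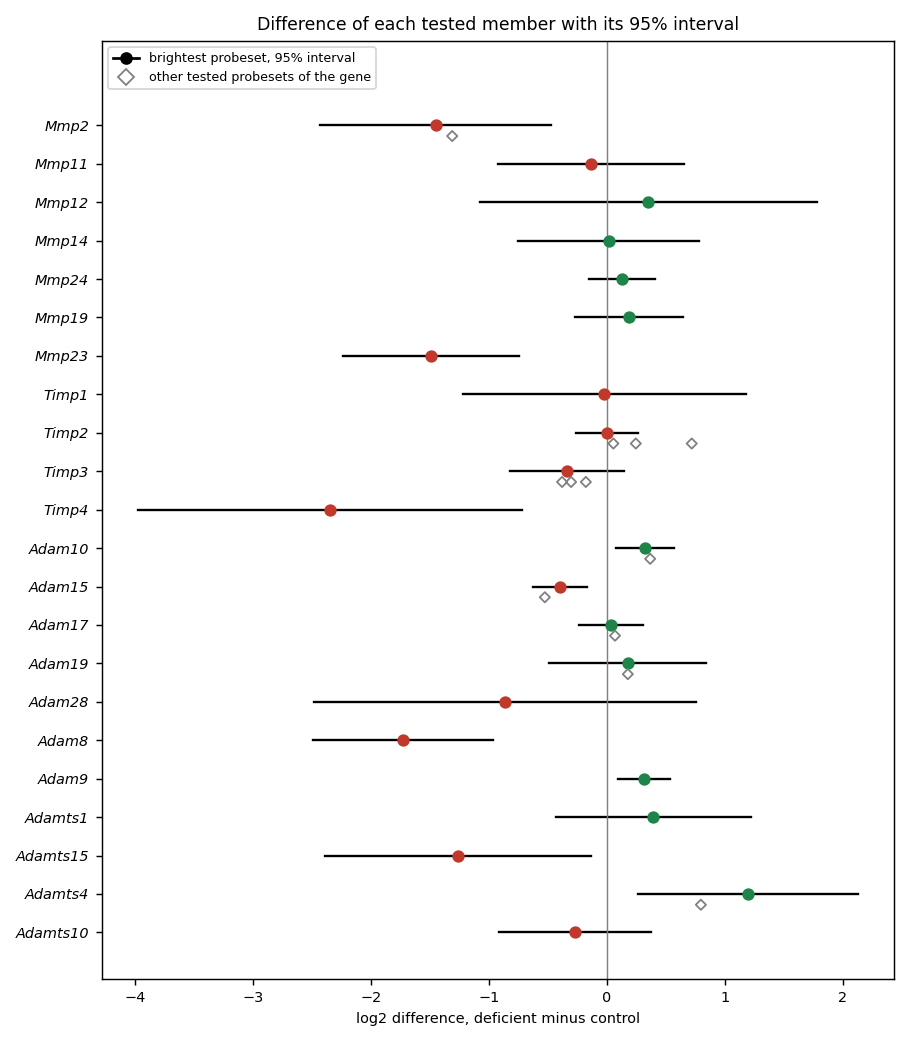
Log2 difference, deficient minus control (horizontal axis), of the 22 tested members, ordered by role. Filled points with bars give the brightest probeset of the gene with its 95% interval (n = 7 each), and open diamonds give the other tested probesets, which lie near the filled point for Mmp2, Adam10 and Timp3 and away from it for Timp2.

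All 4 inhibitors were tested. Timp4, the inhibitor best known from heart and fat tissue, lay at background in 5 of 7 deficient arrays. Timp4 read 2.15, 2.15 and 4.93 in deficient arrays and 2.19, 5.89 and 7.18 in control arrays. Deficient 1 and 5, at 4.76 and 4.93, were the deficient arrays above 4, and control 1 and 3, at 3.72 and 2.19, were the control arrays below it. The difference of -2.35 (SE 0.76, limma adjusted p = 0.192) depends on the background that GCRMA sets, because a value under 4 is only a bound. Timp4 passed the filter with 7 arrays, the fewest allowed, 5 of them controls. With a single array left out Timp4 could be tested in 7 of 14 fits, with differences of -2.86 to -2.22.

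Timp3, the matrix-bound inhibitor that also blocks ADAM17, read 9.52, 10.002 and 11.08 in deficient arrays and 9.91, 10.71 and 10.88 in control arrays. Deficient 5 was the highest of all arrays for Timp3, and 5 of 7 deficient arrays lay below the control mean. The difference was -0.34 (SE 0.23, limma adjusted p = 0.515), and the 3 other tested probesets differed by -0.38, -0.30 and -0.18. Timp2, which joins MMP14 in activating the Mmp2 proenzyme, read 10.60, 10.88 and 11.18 in deficient arrays and 10.70, 10.80 and 11.17 in control arrays. The groups covered the same narrow range (-0.0023, SE 0.12, 95% interval -0.27 to 0.26, adjusted p = 0.995). Its other tested probesets differed by 0.055, 0.25 and 0.72, so the probesets of Timp2 disagree. The one at 0.72 read 5.91 on average in deficient and 5.19 in control arrays (SE 0.19, adjusted p = 0.134). Timp1, an inhibitor induced in inflammation and wounding, read 5.32, 6.94 and 9.50 in deficient arrays and 5.82, 6.86 and 8.49 in control arrays. Deficient 3 and control 3, at 9.50 and 8.49, were the highest of their groups, as they were for Mmp10. The Timp1 difference was -0.023 (SE 0.56, adjusted p = 0.989), with a sign that changed with the processing.

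Of 9 catalytic ADAMs 7 were tested, and 4 of these (57.1%, against 14.7% of all tested probesets) had an unadjusted p under 0.05. Adam8, a membrane protease best known from leukocytes, had the smallest p of all members. It read 4.17, 4.94 and 5.74 in deficient arrays and 5.47, 6.93 and 7.62 in control arrays. In 6 of 7 deficient arrays Adam8 lay below every control array, and control 1 and 4, which share a number, were the lowest controls at 5.60 and 5.47. The difference was -1.73 (SE 0.36, 95% interval -2.49 to -0.96, 3.31-fold lower, limma unadjusted p = 0.000242, adjusted p = 0.116). Without control 4 it was -1.91 and passed (adjusted p = 0.0471), in a fit in which 85 of all probesets passed, against 5 with all arrays. That fit removes the control nearest to the deficient arrays, so its smaller p is no support for a difference. Over all 14 fits that left out 1 array, adjusted p-values of Adam8 ran between 0.0471 and 0.275. Macrophage markers, which mark cells known to make Adam8, had mean levels of 8.27 to 9.86 in deficient arrays and 8.68 to 10.23 in control arrays. Of the 8 macrophage markers 0 passed and 2 were lower at an unadjusted p under 0.05 (25.0%, against 6.57% of all probesets in that direction). Neutrophil markers, of another kind of leukocyte, had mean levels of 5.21 to 5.86 in deficient arrays and 4.77 to 7.42 in control arrays. Of 8 neutrophil markers 3 were tested and 0 passed. All 3 had a positive difference (median 0.32), as did 52.6% of all tested probesets. The part of either kind of cell in the Adam8 difference was not tested.

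Adam15, a membrane protease of endothelium and epithelium whose disintegrin domain binds integrins in human, differed little but evenly. It read 7.77, 8.06 and 8.22 in deficient arrays and 8.11, 8.42 and 8.72 in control arrays. Only deficient 4, at 8.22, was not below the lowest control. The difference was -0.40 (SE 0.11, 95% interval -0.63 to -0.17, limma adjusted p = 0.137), and the other tested Adam15 probeset differed by -0.53 (SE 0.15).

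Of the 4 catalytic ADAMs with a positive difference, Adam9 and Adam10 had an unadjusted p under 0.05 and did not pass over all probesets. Adam9, a widely made membrane protease, read 10.32, 10.75 and 11.01 in deficient arrays and 10.29, 10.42 and 10.50 in control arrays. Of the deficient arrays 6 lay above every control for Adam9, and deficient 3 lay below the control mean. The difference was 0.32 (SE 0.10, 95% interval 0.098 to 0.54, 1.25-fold, limma adjusted p = 0.189). Adam10, the protease that makes the ligand-induced cut of Notch receptors and releases EGF family ligands, read 10.58, 10.92 and 11.23 in deficient arrays and 10.39, 10.53 and 10.75 in control arrays. All 7 deficient arrays lay above the control mean and 4 of them above the highest control. The difference was 0.32 (SE 0.11, 95% interval 0.078 to 0.57, adjusted p = 0.223), and the other tested Adam10 probeset differed by 0.37 (SE 0.17).

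Adam17, the protease that releases TNF and several EGF receptor ligands, read 9.37, 9.45 and 10.08 in deficient arrays and 9.44, 9.58 and 9.81 in control arrays. The difference was 0.033 (SE 0.13, 95% interval -0.24 to 0.30), and a second probeset differed by 0.069. Deficient 4, 5 and 7 lay above every control, at 9.87 to 10.08, and deficient 3 and 6 lay below every control, at 9.37 each. Adam19, which releases neuregulin, read 8.62, 10.01 and 11.00 in deficient arrays and 9.23, 9.71 and 10.24 in control arrays (0.18, SE 0.31). The spread of Adam19 was thus wider among deficient arrays, with an SD of 0.82 against 0.33 in controls. Adam28, known from lymphocytes, read 3.40, 5.07 and 7.49 in deficient arrays and 3.02, 6.72 and 7.46 in control arrays (-0.86, SE 0.76). Control 1 and 4, at 3.02 and 4.21, lay apart from the other 5 controls, at 6.01 to 7.46. Adam12, known from mesenchymal cells, exceeded 4 in 3 deficient and 2 control arrays and was not tested, and Adam33 stayed at or under 2.37. The 16 non-catalytic or germ-line ADAMs stayed at or under 2.49 in every array. They were Adam1a, Adam1b, Adam2, Adam3, Adam4, Adam5, Adam7, Adam11, Adam18, Adam21, Adam22, Adam23, Adam24, Adam25, Adam26a and Adam34.

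**Figure D4:**
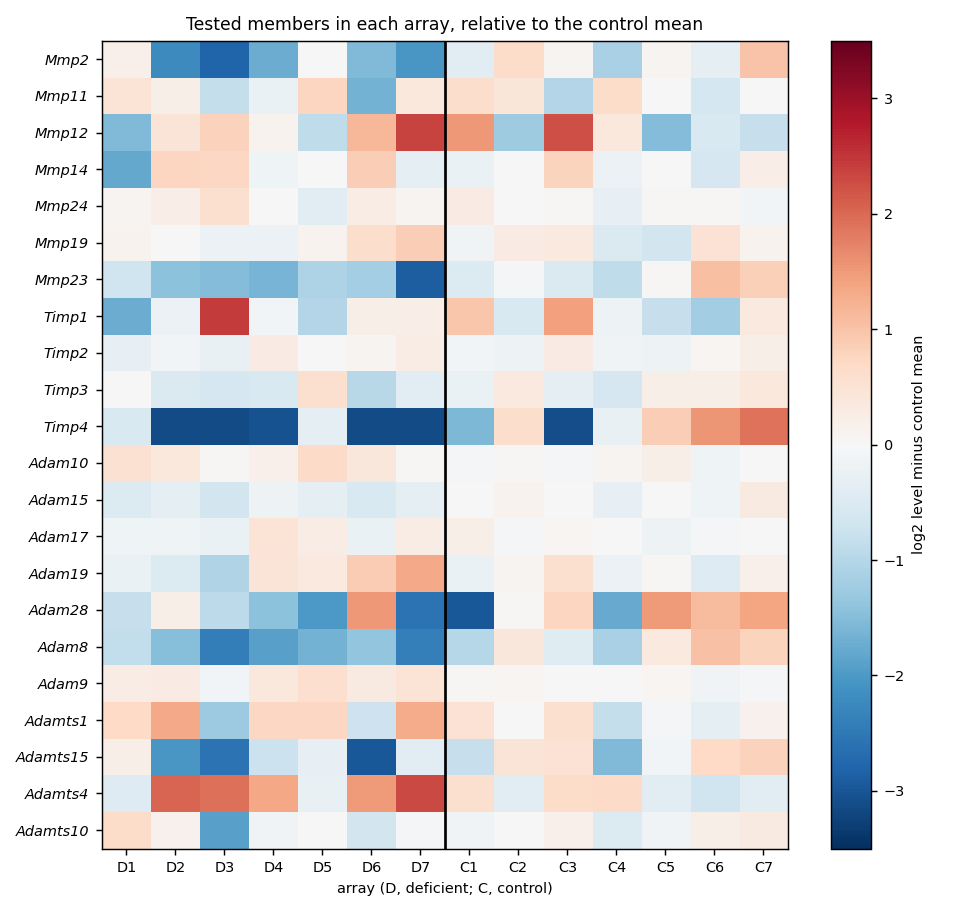
Log2 level of the 22 tested members (rows, by role) in each array (columns, deficient D1 to D7 left of the line, control C1 to C7 right), relative to the control mean of the gene. Mmp2, Timp4 and Adamts4 in D1 and D5 resemble the control columns more than the other deficient columns do, and D3 and D6 are low for Adamts1, Adamts15 and Adamts10.

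Among the ADAMTS genes, enzymes that cut the large proteoglycans aggrecan and versican gave differences in both directions. Adamts4, an aggrecanase, read 3.08, 5.00 and 5.82 in deficient arrays and 2.83, 3.12 and 4.19 in control arrays. The 5 deficient arrays other than deficient 1 and 5 lay at 4.86 to 5.82, above every control, whereas deficient 1 and 5 read 3.08 and 3.26. The difference was 1.20 (SE 0.44, 95% interval 0.26 to 2.13, limma adjusted p = 0.234), a value that depends on the background because 4 of 7 control arrays lay under 4. The second Adamts4 probeset differed by 0.80 (SE 0.59). Without deficient 1 and 5 the Adamts4 difference was 1.82 (adjusted p = 0.0196), in the same fit chosen after the data were seen. It removes the deficient arrays that overlap the controls, so its smaller p is no support for a difference. Adamts15, another proteoglycan-cutting enzyme, read 2.48, 4.71 and 5.67 in deficient arrays and 3.93, 5.90 and 6.26 in control arrays. Deficient 3 and 6, at 2.89 and 2.48, and deficient 2, at 3.41, lay below every control. Its difference was -1.26 (SE 0.53, 95% interval -2.39 to -0.13, adjusted p = 0.292).

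Adamts1, an enzyme that cuts versican and aggrecan, read 7.04, 9.04 and 9.64 in deficient arrays and 7.48, 8.32 and 8.89 in control arrays. For Adamts1, 5 deficient arrays lay above every control, deficient 3 lay below every control, and deficient 6 read 7.61 (0.40, SE 0.39, limma adjusted p = 0.673). Without deficient 3 and 6, the lowest deficient arrays, the Adamts1 difference was 0.95 and did not pass (adjusted p = 0.120). Adamts10, which acts on the fibrillin network, read 6.35, 8.21 and 8.88 in deficient arrays and 7.78, 8.25 and 8.55 in control arrays (-0.27, SE 0.30, adjusted p = 0.711). Deficient 3 and 6 again were the lowest, at 6.35 and 7.60, and the Adamts10 difference was 0.13 without them. Endothelial markers had mean levels of 5.36 and 5.49 in deficient 3 and 6 and of 6.90 to 7.64 in deficient 2, 4 and 7. They were 8.53 and 8.49 in deficient 1 and 5 and 7.20 to 8.40 in control arrays. All 8 endothelial markers were tested and had a negative difference, with a median of -0.67, 0 passed and 0 had an unadjusted p under 0.05. Deficient 3 and 6 were also the lowest of all arrays in alveolar type I markers, at 8.14 and 8.49, against 9.92 to 10.28 in the other deficient arrays and 9.96 to 10.97 in control arrays. They were the lowest in ciliated cell markers too, at 3.47 and 3.42. The part of any of these cells in the Adamts values was not tested. The aggrecanase Adamts5 exceeded 4 in control 6 alone, at 4.22, and stayed at or under 2.74 in deficient arrays. Adamtsl4, a fibrillin-binding protein without protease activity, exceeded 4 in 1 deficient and 5 control arrays and was not tested. Adamts7, Adamts8 and Adamtsl5 stayed at or under 2.64.

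Of the members linked to HIF-2α in other tissues, Mmp3, Mmp9, Mmp12, Mmp13, Mmp14 and Adamts4, 3 were tested and 0 passed. The differences of these 3 were positive, as were 52.6% over all tested probesets, at 1.20 for Adamts4, 0.35 for Mmp12 and 0.016 for Mmp14. The signs of Mmp12 and Mmp14 changed with the arrays left out. The untested ones averaged under 4 and went both ways. Mmp3 averaged 3.74 in deficient and 3.84 in control arrays, Mmp9 2.36 and 2.89, and Mmp13 2.92 and 2.19. Factors of the HIF family bind the core ACGTG, and this core was searched on both strands in the same promoter windows. It was found in 6 of 37 member windows (16.2%) and in 19.6% of all windows. Of the genes with values above, Mmp14, Timp1, Adam10 and Adam19 hold it, and the first 3 are shown beside their small or absent differences, 60 bases each on the plus strand, with the core, or its reverse complement CACGT, in capitals. They lie at chr14:54431523-54431582 for Mmp14, chrX:20870057-20870116 for Timp1 and chr9:70678891-70678950 for Adam10.
Mmp14: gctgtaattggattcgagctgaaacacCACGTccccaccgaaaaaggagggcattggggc
Timp1: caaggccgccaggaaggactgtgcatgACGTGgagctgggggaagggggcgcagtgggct
Adam10: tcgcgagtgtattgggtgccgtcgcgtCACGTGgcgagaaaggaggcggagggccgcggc
Counted from the gene start, the core begins at -48 in Mmp14, -82 in Timp1 and -64 in Adam10. In Adam10 both strands match because the letters CACGTG also form an E-box, the site of another family of factors. These matches show no binding, and a window without the letters says nothing about the factor.

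Arrays that share a leading number resembled each other in several members and differed in others. Deficient 3 and 6 read 8.62 and 10.56 for Adam19 and 9.50 and 7.26 for Timp1. Deficient 4 and 7 read 6.67 and 5.42 for Mmp23, and the 5 controls that share a number ran from 2.19 to 7.18 for Timp4. By these numbers Mmp2 averaged 9.25 in deficient 1 and 5, 6.92 in deficient 2, 6.99 in deficient 3 and 6, and 7.28 in deficient 4 and 7, against 8.41 in control 1 and 4 and 9.46 in the other 5 controls. Adamts4 averaged 3.17, 5.56, 5.22 and 5.34 in the same deficient arrays, against 4.13 and 3.27 in the controls. Deficient 1 and 5 thus lay apart from the other deficient arrays in both genes. Timp3 averaged 10.80 in deficient 1 and 5, 10.002 in deficient 2, 9.72 in deficient 3 and 6 and 10.06 in deficient 4 and 7, against 10.09 in control 1 and 4 and 10.68 in the others. For Adam8 the deficient averages were 4.44 to 5.34, against 5.54 in control 1 and 4 and 7.01 in the other controls. Adam8, Mmp23 and Adam15 were lower than both control averages in each of the 4 deficient sets, and Adam9 and Adam10 were higher than both in each. Mmp2 and Adamts4 were not separated from the controls in deficient 1 and 5.

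**Figure D5:**
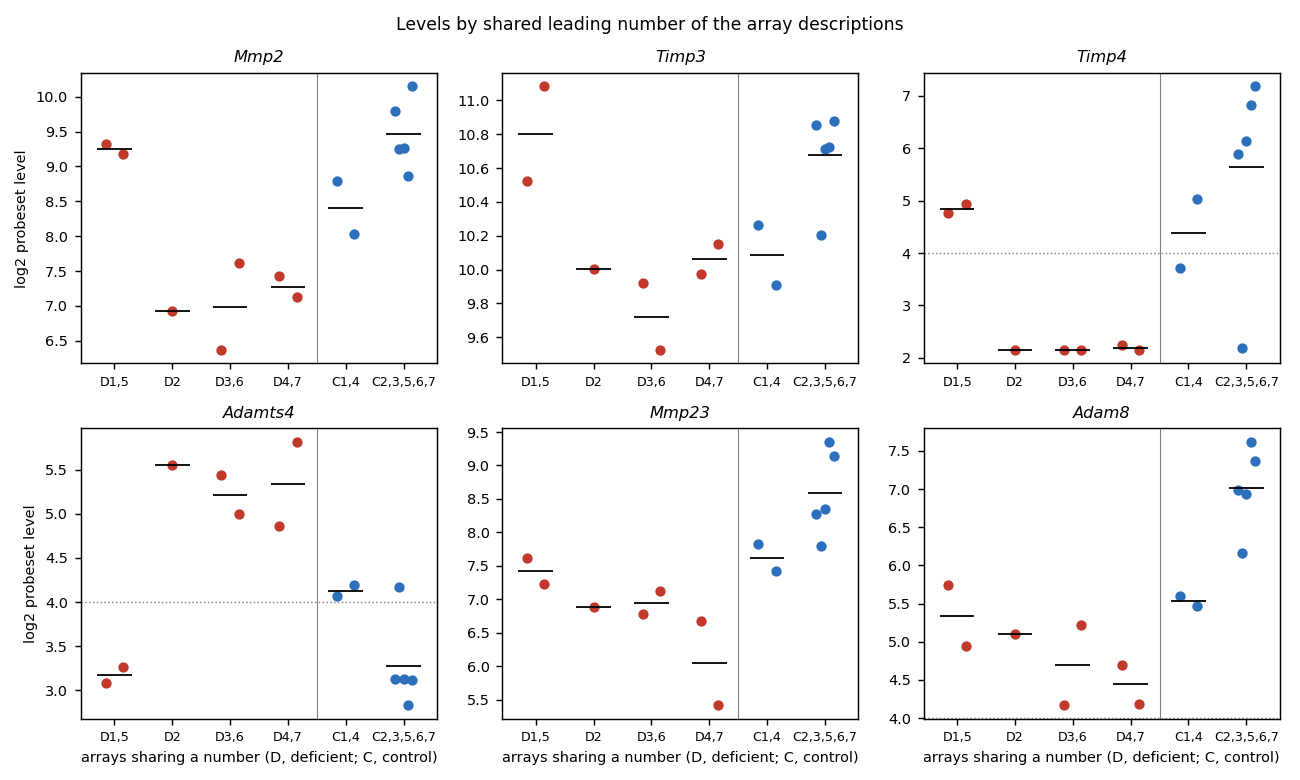
Log2 probeset level of 6 members (panels) by the leading number that arrays share (horizontal axis, deficient D in red left of the line, control C in blue), with a line at the mean of each set and a dotted line at the detection limit of 4 where it lies in range. D1,5 lie near the control sets for Mmp2, Timp3, Timp4 and Adamts4, and both control means lie above all deficient means for Adam8 and Mmp23.

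With the shared number as a random block, the correlation between arrays of a number was estimated at 0.35 over the tested probesets. The main fit treats all arrays as independent, so its p-values may be too small. In the block fit 0 members passed and 6 had an unadjusted p under 0.05. With arrays averaged over the number 0 passed and 3 had. The share of all probesets at that level in these fits is not given here, so the 6 and 3 cannot be set against it. Leaving out deficient 1 and 5, as said a choice made on these data, gave 4 of 21 tested members past the threshold. These were Adam8, Adamts4, Mmp2 and Mmp23, and 264 of 12609 probesets passed. Leaving out control 1 and 4, likewise not planned, gave 2 of 20 tested members, Adam8 and Mmp23, and 117 of 12616 probesets. Control 1 and 4 were the lowest controls for Adam8, and control 4 was the lowest for Mmp23. That fit thus removes controls near to the deficient arrays, so it is no support for a difference. With arrays weighted by their agreement 9 of 22 members and 1900 of 12701 probesets passed. Fibroblast markers, which mark the cells known to make much Mmp2 and Timp3, had mean levels of 8.98 and 9.04 in deficient 1 and 5, of 7.91 to 8.52 in the other deficient arrays and of 8.77 to 9.61 in control arrays. Of 10 fibroblast markers 9 were tested, 0 passed, 3 were lower in deficient tumours at an unadjusted p under 0.05 (33.3%, against 6.57% of all probesets in that direction), and Lum was at background in all arrays. The median difference of the fibroblast markers was -0.45. Ciliated cell markers had mean levels of 7.14 and 6.38 in deficient 1 and 5, of 3.42 to 4.57 in the other deficient arrays and of 5.81 to 9.60 in control arrays. Of 6 ciliated markers 4 were on the array and only 3 were tested. These 3 were lower at an unadjusted p under 0.05 (100%, against 6.57% of all probesets in that direction). Club cell markers, genes of secretory airway cells, had mean levels of 10.14 to 11.68 in deficient arrays and 11.56 to 12.97 in control arrays. Of 6 club markers 5 had a negative difference (median -1.0) and 0 passed. At an unadjusted p under 0.05 stood 2, both lower (33.3%, against 6.57% of all probesets in that direction). Alveolar type I markers likewise had a negative difference in 5 of 6 (median -0.40), with 0 passed. The 2 that were lower at an unadjusted p under 0.05 (33.3%, against 6.57% of all probesets in that direction) were Igfbp2 at -2.76 (SE 0.81) and Rtkn2 at -1.50 (SE 0.64). Endothelial markers too were highest of the deficient arrays in deficient 1 and 5, at 8.53 and 8.49 against 5.36 to 7.64. The same held for macrophage markers, at 9.80 and 9.86 against 8.27 to 9.32. Outside the fibroblast, ciliated, endothelial and macrophage lists deficient 1 and 5 were not both ahead of the other deficient arrays. The part of any of these cells in the Mmp2, Timp3, Timp4 and Mmp23 differences was not tested. In a whole tumour, fewer cells of a type and less RNA per cell cannot be told apart.

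Genes that work with these proteases gave 0 calls as well. Of 22 activators, cofactors and other inhibitors 11 were tested, 3 positive and 8 negative in difference. Plat, the tissue plasminogen activator, read 6.38 ± 0.40 in deficient arrays and 5.94 ± 0.35 in control arrays (SD, n = 7 each), a difference of 0.43 (SE 0.19, limma adjusted p = 0.323) and the single gene of the list with an unadjusted p under 0.05 (9.09% of those tested, against 14.7% of all probesets). Bsg, an inducer of MMPs, differed by -0.33 (SE 0.24), Serping1 by -0.74 (SE 0.37) and the matrix proteoglycan gene Spock2 by -1.59 (SE 0.76). Of 35 partners and substrates of ADAMs 27 were tested, with 2 higher and 4 lower at an unadjusted p under 0.05 (22.2%, against 14.7% of all probesets). Ereg, a growth factor that Adam17 releases, read 9.80 ± 0.66 in deficient and 8.47 ± 0.85 in control arrays, a difference of 1.33 (SE 0.38, adjusted p = 0.153). Axl, a receptor that Adam10 and Adam17 release, read 7.36 ± 0.68 in deficient and 8.39 ± 0.61 in control arrays, a difference of -1.02 (SE 0.32, adjusted p = 0.180). Notch1, the receptor that Adam10 cuts, differed by -0.55 (SE 0.16), and Notch2 by 0.066 (SE 0.11).

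Of 24 matrix substrates and partners of ADAMTS proteins 13 were tested, with 1 higher and 1 lower at an unadjusted p under 0.05 (2 of 13, a share near the 14.7% of all probesets). Thbs1, the matrix protein thrombospondin 1, read 8.81 ± 0.47 in deficient and 7.74 ± 0.56 in control arrays (SD, n = 7 each), a difference of 1.06 (SE 0.26, limma adjusted p = 0.132). Col3a1, a fibrillar collagen chain, differed by -0.45 (SE 0.21), Col1a2 by -0.50 (SE 0.23) and the proteoglycan Bgn by -0.091 (SE 0.21). The substrates aggrecan (Acan) and Comp were at background in all arrays. Of 20 other matrix proteases 11 were tested, 2 positive and 9 negative, with 0 at an unadjusted p under 0.05. Ctss differed by -0.28 (SE 0.15), Ctsk by -0.48 (SE 0.35), Ece1 by -0.17 (SE 0.12) and Ctsb by 0.0089 (SE 0.13).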

How the data were processed

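Trizol-extracted total RNA of 14 tumours was turned into biotin-labelled cRNA and measured on Affymetrix mouse arrays, per the labels' protocols. The authors deposited log2 levels of probesets, and the submitters' processing notes name GCRMA as the method. The software version and the genome build are not given in the sources used here. Probesets were named from the platform annotation, and 1 probeset that names a member beside another gene was left out. All 85 member probesets had a gene ID in the RefSeq table, and 0 symbols changed.

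Each probeset was fitted by limma 3.58.1 under R 4.3.3 (lmFit and eBayes, 1 group term, two-sided), without the 64 control probesets, and adjusted by the Benjamini-Hochberg method. Differences are deficient minus control. The number of arrays limits the precision, and the median SE was 0.18. The fit was run on simulated independent arrays, only to check that median estimates lay near the effects put in. That check does not cover arrays that share a number or values at the background, and says nothing about the p-values in these data. Per-array values were given for the inhibitors, members linked to HIF-2α, members with an unadjusted p under 0.05, and the brightest member and widest difference of each role. The other tested members and those that exceeded 4 in some arrays were added after their values were seen. Lists were described by the 3 smallest p-values and the brightest gene. The main fit did not pair the arrays by replicate number. Members and lists were chosen with earlier results of these data known. Alternatives covered filters, normalisation, variance model, array weights, RNA quality, leading and replicate numbers, probesets and arrays left out.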

Additional observations from a re-analysis of the deposited data

Results flagged for a closer look

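Outlying arrays were sought in 42 groups of 7 arrays (the 21 members described by rule, both groups). In 3 of these an array had a gap to its nearest neighbour of more than 0.568 of the whole range of the group. Chance gives about 1 such group in 20. Deficient 7 read 5.42 for Mmp23, below the other deficient arrays at 6.67 to 7.61. Deficient 1 read 2.89 for Mmp9, and the next deficient array was at 2.43. Control 3 read 2.24 for Mmp13, and the next control was at 2.19. The Mmp9 and Mmp13 values lie at the background. Other members were not checked, and arrays stood apart among them too. For Mmp10 deficient 3 read 6.28, with the next deficient array at 3.24, and control 3 read 5.77, with the next control at 2.585.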

How the results depend on the processing

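Over all tested probesets 5 passed. That count was 0 with no filter on low values, 3 with values above 4 in all 14 arrays, 9 with a trended and robust variance and 1900 with array weights. It was 0 with a random block for the leading number, 0 with arrays averaged over it and 2 with the replicate block. Leaving out all arrays of a number gave 264 without deficient 1 and 5, 31 without deficient 3 and 6, 0 without deficient 4 and 7, 117 without control 1 and 4 and 0 without the other 5 controls. Leaving out 1 array gave 0 to 85 (0 without deficient 2 or 4, 85 without control 4). Members past the threshold were 0 with these exceptions, namely 9 with array weights, 4 without deficient 1 and 5, 2 without control 1 and 4, and 0 to 1 with single arrays left out. Members at an unadjusted p under 0.05, 9 as reported, were 5 with values above 6 required, 3 with averaged numbers, 0 without the 5 controls and 7 to 9 with 1 array left out. With the replicate block 0 members passed and 8 had an unadjusted p under 0.05. The shares of all probesets at that unadjusted level under these alternatives are not given here. Deficient and control arrays with the same replicate number, which is not the leading number, showed little pairing. Of 7 such pairs 2 had correlated deviations above 0.1 (range -0.23 to 0.22), and 0 arrays correlated best with their own replicate number. Probesets are not independent, so these values do not settle what the replicate numbers mean.

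Of 18 tested members described by rule, 12 kept their sign in every alternative in which they could be tested. Mmp2 ranged from -2.07 to -0.70, Mmp23 from -1.77 to -0.80, Adam8 from -2.15 to -0.67 and Adamts4 from 0.59 to 1.82. Timp2 became 0.079 with median centring, 0.12 with array weights, 0.013 with the random block, 0.018 with averaged numbers and 0.18 over all its probesets. It also became 0.056, 0.031 and 0.11 without deficient 1 and 5, deficient 3 and 6, and the 5 controls, and ranged from -0.052 to 0.045 with 1 array left out. Timp1 became 0.00018 with quantile normalisation, 0.058 with median centring, 0.17 with array weights, 0.52 without deficient 1 and 5, 0.13 without control 1 and 4, and ranged from -0.44 to 0.26. Mmp14 became -0.042 with RNA quality as a covariate, -0.30 without deficient 3 and 6, -0.072 without control 1 and 4, and ranged from -0.13 to 0.32. Adamts10 became 0.13 without deficient 3 and 6, 0.022 without the 5 controls, and ranged from -0.42 to 0.00036. Mmp12 became -0.0052 without deficient 4 and 7 and -0.58 without the 5 controls, and Timp3 0.082 without the 5 controls. The causes were not tested. Values under 4 are bounds, so differences of Timp4, Adamts4 and Adamts15 depend on the background.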
